A study of Rattus norvegicus with 9 samples.

Results

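Voltage-gated sodium and calcium channels, HCN channels and the ClC family of chloride channels and transporters set how a neuron fires. Sodium channels carry the upstroke of the action potential. Calcium channels couple firing to the release of hormone and transmitter, and HCN channels carry an inward current that opens on hyperpolarization. ClC proteins pass chloride across the cell membrane or exchange chloride for protons in endosomes and lysosomes. In the magnocellular neurons of the supraoptic nucleus, which make the hormones vasopressin and oxytocin, firing patterns govern how much hormone is released when an animal lacks water. The genes of these channel subunits are described here by their RNA signal on arrays of that nucleus.

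The members were chosen by symbol alone. A probe set is a group of short probes on an Affymetrix array that is summarized as 1 signal. The members are all probe sets with exactly 1 gene symbol in the platform annotation, where that symbol meets the rule. It begins with Scn and a digit, Cacna, Cacnb, Cacng, Hcn and a digit, or Clcn. This gave 49 probe sets for 29 genes, of 7006 probe sets for 4736 genes with 1 symbol. Sodium channels had 17 probe sets for 10 genes, calcium channels 26 for 14 and ClC genes 6 for 5. No probe set with a single symbol was found for an HCN gene (0 members), so the HCN channels were not analysed here, and neither was Clcn2, which had been listed as a gene of interest. All 49 were found by gene ID in RefSeq's genes for GRCr8, under the same symbols. In the gene order of that assembly, Scn2a and Scn3a are next neighbours, as are Scn7a with Scn9a and Scn9a with Scn1a, with 4 protein-coding genes between Scn1a and Scn2a. Scn10a and Scn11a have 1 protein-coding gene between them.

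The animals were Sprague Dawley rats, all male and 10 to 12 weeks old, and RNA of the supraoptic nucleus was read on 3 arrays in each of 3 groups: control, 1d dehydrated and 3d dehydrated. The labels give no transgene or further agent, and they do not say whether an array holds 1 animal or a pool, so the p-values cover only the differences among these arrays and those may be technical. Titles give the arrays of each group the letters a, b and c without saying what the letter stands for. Values are MAS5 signals, a linear brightness per probe set. Signals of different probe sets are not compared with each other, since each has its own probes.

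Median signals per array ran from 26.8 to 40.3. The brightest signals on control c and 1-day c were 2104.8 and 2238.9, against 3867.3 to 6294.9 on the other 7 arrays. The tissue label was checked against markers: Avp, the vasopressin gene, read between 1621.8 and 5678.3 on the 9 arrays and Oxt, the oxytocin gene, between 208.3 and 4356.1, with its 2 lowest values on control c and 1-day c. Of 9 listed astrocyte genes 8 had a probe set, and their summed signal had a range of 6519.8 to 11131.4 over the control arrays, of 6675.7 to 11676.3 over the 1-day arrays and of 10725.3 to 13702.0 over the 3-day arrays. Of 8 oligodendrocyte genes 6 had one, with sums of 4598.3 to 7698.5, 3677.3 to 8051.5 and 3389.0 to 7967.8. No marker of these lists was at 0 on any array. In bulk tissue of this kind fewer cells of a type and less RNA per cell cannot be told apart.

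Of the 49 member probe sets 30, for 23 genes, passed the filter on dim probe sets, a mean signal of at least 23.1 over the 9 arrays, and were tested by limma. No member passed the test after 1 day, after 3 days, between the times or over the 3 groups: 0 of 30 in each, where 0 percent of all 5247 tested probe sets were called. An unadjusted p under 0.05 was reached by 0, 0, 1 and 0 of them, beside 1.01, 1.72, 1.83 and 1.05 percent of all tested probe sets. The smallest adjusted p of a member was 0.998 in limma, and 0.770 with the letter as a block, which also made 0 calls. The precision was low. The standard error of a member's log2 fold change had a median of 0.52 and a range of 0.25 to 0.90, against a median of 0.40 over all tested probe sets. These values are from the fit without the letter. With the letter as a block the standard errors ran from 0.19 (Cacna1g) to 0.75 (rc_AI229031_s_at of Cacna1a).

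**Figure D1:**
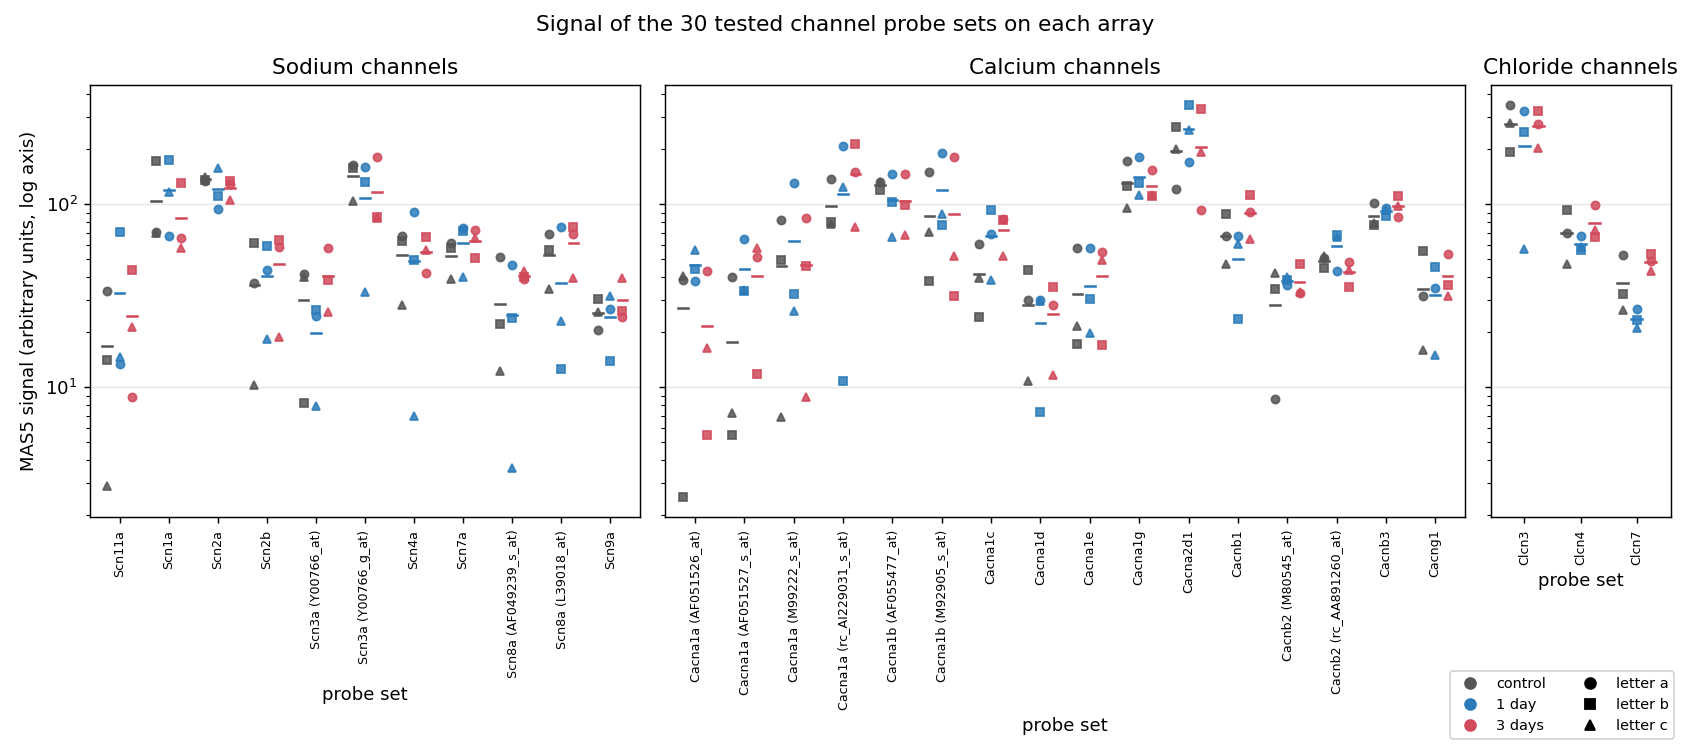
MAS5 signal (log axis) of the 30 tested probe sets on each of the 9 arrays, coloured by group and shaped by letter, with bars for group means. The groups overlap for every probe set against control, and for every probe set but Clcn7 between 1 and 3 days.

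Among the pore-forming sodium channel subunits of the brain, Scn2a, which encodes Nav1.2, was even over the control arrays. Its signal was 134.0, 136.0 and 140.5 on control a, b and c, then 94.5, 110.9 and 157.9 at 1 day and 128.3, 134.2 and 105.5 at 3 days. The control arrays lay within a few units of each other. Of the dehydrated arrays only 1-day c lay above them, 3-day b lay inside their range and the others lay below. The log2 fold change, on the scale log2(signal + 4) used throughout, was -0.20 ± 0.26 at 1 day and -0.16 ± 0.26 at 3 days (± SE, n = 3). At 3 days it was lower within all 3 letters, by -0.06, -0.02 and -0.40.

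Scn8a, which encodes Nav1.6, the main channel of the axon initial segment in many neurons, had 3 probe sets. The probe set L39018_at read 68.4, 55.9 and 34.6 in control, 75.2, 12.6 and 23.1 at 1 day, and 69.1, 74.8 and 39.6 at 3 days. Letter a stayed within 68.4 to 75.2, and the low 1-day values came from letters b and c. The log2 fold change was -0.74 ± 0.55 at 1 day, 0.20 ± 0.55 at 3 days and 0.94 ± 0.55 between the times (limma unadjusted p = 0.114, adjusted p = 0.998). Without 1-day b the first and the last value were -0.25 and 0.45, without 1-day a -1.38 and 1.57, and without control c the 3-day value was -0.06. The second tested probe set, AF049239_s_at, read 51.2, 22.2 and 12.2 in control, 46.8, 23.8 and 3.6 at 1 day, and 39.1, 40.1 and 42.9 at 3 days. Its 3-day arrays lay close together, inside the range of the control arrays. The third probe set, M27223_at, read 1.5 to 32.7 over the 9 arrays and was not tested.

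Scn3a, the Nav1.3 gene, is known for high expression in the embryonic brain, and its 2 probe sets come from 1 accession. Y00766_g_at read 164.4, 157.4 and 103.9 in control, 159.6, 132.5 and 33.0 at 1 day, and 180.1, 84.8 and 84.3 at 3 days. The low 1-day mean rests on letter c: the log2 fold change of -0.61 ± 0.53 became 0.06 without that array. Y00766_at stood at 41.5, 8.2 and 40.1, then 24.6, 26.5 and 7.9, then 57.6, 38.4 and 25.8. It was higher at 3 days than at 1 day in each letter, by 1.11, 0.48 and 1.32, with a mean of 0.97 ± 0.62 (limma adjusted p = 0.998), which was 0.53 without 1-day c.

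Scn1a, the Nav1.1 gene, read 70.2, 171.9 and 70.0 in control, 67.4, 174.2 and 116.7 at 1 day, and 65.7, 130.2 and 57.7 at 3 days. Letter b was highest in every group. Between the times it differed by -0.47 ± 0.46, and by -0.16 without 1-day b. Scn7a encodes Nax, a sodium-level sensor of glia and neurons in brain regions that monitor body fluids rather than a voltage-gated channel. Its probe set S75991_at read 61.0, 57.3 and 38.9 in control, 73.8, 71.1 and 39.8 at 1 day, and 72.7, 50.8 and 65.4 at 3 days, with overlapping groups. A second Scn7a probe set stayed between 1.3 and 19.5 and was not tested.

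The other sodium channels are known mainly from sensory neurons and muscle. Tested probe sets of Scn9a (13.9 to 39.6 over the 9 arrays), Scn11a (2.9 to 70.3) and Scn4a, the skeletal muscle channel (7.0 to 91.0), had overlapping groups in all comparisons. Scn10a lay under the filter at 2.4 to 21.6, as did a second Scn9a probe set at 9.0 to 67.3. Scn2b, an auxiliary beta subunit that anchors sodium channels at the membrane, read 37.0, 61.4 and 10.3 in control, 43.7, 59.2 and 18.4 at 1 day, and 58.4, 63.9 and 18.9 at 3 days. It stood at 0.27 ± 0.65 at 1 day and 0.45 ± 0.65 at 3 days, where all 3 letters were higher, by 0.61, 0.05 and 0.68. With the letter as a block the SE was 0.31. Without control c, the lowest array, the means at 1 and 3 days were -0.35 and -0.17. That fit kept 1-day c and 3-day c, the lowest arrays of their groups, so the letters were no longer balanced.

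Cacna1c, which encodes the L-type calcium channel Cav1.2, had the smallest unadjusted p of all members at 3 days. Its probe set M59786_at read 60.3, 24.2 and 39.6 in control, 69.0, 93.3 and 38.7 at 1 day, and 83.3, 81.7 and 52.0 at 3 days. At 3 days every letter was higher than its own control, but the array of letter c stayed under control a, so the groups overlapped. The log2 fold change was 0.65 ± 0.42 at 1 day and 0.80 ± 0.42 at 3 days (limma unadjusted p = 0.0805, adjusted p = 1.00), and the letter differences at 3 days were 0.44, 1.60 and 0.36. Without control b, its lowest array, the values were 0.34 and 0.50. The other Cacna1c probe sets, M89924cds_s_at and U31815_s_at, were not tested and read 0.9 to 21.6 and 2.9 to 23.9.

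Cacna1d, the Cav1.3 gene of low-threshold L-type current, had 5 probe sets, of which D38101_s_at alone was tested. It read 30.0, 43.8 and 10.8 in control, 30.0, 7.3 and 29.6 at 1 day and 28.3, 35.4 and 11.7 at 3 days, with log2 fold changes of -0.30 ± 0.64 and -0.09 ± 0.64. The other 4 never exceeded 17.1. One of them, U49126_s_at, had both dehydrated groups above control with no overlap, at 3.7, 3.8 and 3.2 in control, 6.3, 6.3 and 4.0 at 1 day and 11.2, 4.2 and 5.2 at 3 days. Signals this low carry little information, and this probe set was singled out after its values were seen.

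Cacna1a encodes the P/Q-type channel Cav2.1 of nerve terminals and had 4 tested probe sets. The probe set rc_AI229031_s_at read 137.5, 80.0 and 77.5 in control, 207.3, 10.8 and 123.6 at 1 day, and 150.7, 212.9 and 74.8 at 3 days. The 1-day array b alone set its direction: the log2 fold change of -0.43 ± 0.81 at 1 day was 0.73 without it, and that between the times went from 0.91 ± 0.81 to -0.25. AF051527_s_at had the smallest unadjusted p of the members at 1 day. It read 40.2, 5.5 and 7.2 in control, 64.7, 33.5 and 34.1 at 1 day, and 51.7, 11.8 and 57.8 at 3 days. Both dehydrated arrays of each letter lay above the control of that letter, yet control a overlapped both groups. Its log2 fold change was 1.46 ± 0.70 at 1 day (limma unadjusted p = 0.0616, and 0.0178 with the letter as a block) and 1.18 ± 0.70 at 3 days (0.122 and 0.0445); without control a these were 2.16 and 1.88, and 1.05 and 0.77 without control b. Its control mean of 17.6 lies under the filter, which it passed only through its dehydrated arrays. Its fold changes and p-values against control are thus those of a selected probe set and are no support for a change. AF051526_at read 38.5, 2.5 and 40.4, then 38.2, 44.4 and 56.2, then 43.2, 5.5 and 16.3. It stood at 1.11 ± 0.79 at 1 day and at -1.25 ± 0.79 between the times, with letter differences of -0.01, 2.90 and 0.44 in the first and 0.16, -2.35 and -1.57 in the second. Without control b the first was 0.195, and the second was -1.84 without 3-day a and -0.68 without 3-day b.

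Cacna1b, the N-type channel gene, had 2 tested probe sets. AF055477_at read 131.7, 119.5 and 131.6 in control, 146.2, 102.6 and 66.2 at 1 day, and 145.6, 98.9 and 67.8 at 3 days. The controls were close together, both dehydrated arrays of letter a lay above them and those of letters b and c below, for -0.35 ± 0.35 at 3 days, and -0.08 without 3-day c. M92905_s_at read 149.2, 37.9 and 70.2, then 191.4, 76.7 and 88.6, then 181.2, 31.5 and 52.4. Within each letter its 1-day array was the highest of the 3, and between the times it differed by -0.66 ± 0.64 (limma unadjusted p = 0.326, and 0.0340 with the letter as a block). That value was -1.34 without 3-day a and -0.15 without 3-day b.

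For R- and T-type current, Cacna1e read 17.1 to 57.8 over the 9 arrays and Cacna1g 94.9 to 180.2, with Cacna1g means (± SD, n = 3) of 131.0 ± 39.0 for control, 141.3 ± 35.0 after 1 day and 125.2 ± 24.4 after 3 days. Cacna1h (3.7 to 31.5) and the 2 probe sets of the muscle channel gene Cacna1s (1.6 to 6.4 in all) lay under the filter. In all of these the groups overlapped. Striated muscle markers were dim as well: the 4 of 5 listed genes with a probe set summed to 102.8 to 210.9.

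Calcium channel beta subunits bring the pore to the membrane and shape its gating. Cacnb1 read 66.7, 88.6 and 47.0 in control, 67.3, 23.5 and 60.3 at 1 day, and 90.8, 111.6 and 64.6 at 3 days. Each letter was highest at 3 days, and the mean stood at -0.47 ± 0.42 at 1 day, 0.39 ± 0.42 at 3 days and 0.86 ± 0.42 between the times (limma unadjusted p = 0.0645, adjusted p = 0.998). Without 1-day b the last value was 0.43 and the first -0.04; the 3-day value was 0.17 without control c. Cacnb3 was the most precise member: its signal stayed between 76.5 and 111.2, and its log2 fold changes were 0.10 ± 0.25 and 0.19 ± 0.25. Of the Cacnb2 probe sets, M80545_at stood at 0.59 ± 0.49 at 1 day and 0.55 ± 0.49 at 3 days, with control a (8.6) far below the other 8 arrays (32.6 to 47.1). Without that array these values were 0.01 and -0.03. rc_AA891260_at read 51.0, 44.6 and 52.1 in control, 43.2, 67.5 and 65.8 at 1 day, and 48.6, 35.3 and 43.5 at 3 days, for -0.20 ± 0.31 at 3 days and -0.42 ± 0.31 between the times. Cacnb4 read 7.7 to 26.7 and was not tested.

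Cacna2d1 encodes the alpha-2-delta subunit that carries calcium channels to the surface and binds gabapentin. It read 121.1, 263.8 and 200.6 in control, 170.2, 350.1 and 254.3 at 1 day, and 93.2, 332.7 and 193.0 at 3 days. Within each letter the 1-day array was the highest, by 0.48, 0.40 and 0.34 over control, while the letters themselves lay further apart than the groups. The log2 fold change was 0.41 ± 0.46 at 1 day, -0.03 ± 0.46 at 3 days and -0.44 ± 0.46 between the times. With the letter as a block the SE was 0.20. The limma unadjusted p in that fit was 0.0771 at 1 day (adjusted p = 0.958) and 0.0610 between the times (adjusted p = 0.770). After quantile normalization the 3-day value was 0.01. Cacng1, a gamma subunit first known from skeletal muscle, read 15.0 to 55.6 with overlapping groups.

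The 3 tested ClC genes, Clcn3, Clcn4 and Clcn7, encode chloride-proton exchangers of endosomes, synaptic vesicles and lysosomes. Clcn7, the lysosomal exchanger, had the smallest unadjusted p of any member in any comparison. Its signal was 52.9, 32.2 and 26.5 on control a, b and c, 26.8, 23.3 and 21.0 at 1 day, and 48.8, 53.6 and 43.4 at 3 days. All 1-day arrays lay below all 3-day arrays, and each 1-day array lay below the control of its letter. Between the times the log2 fold change was 0.93 ± 0.36, or 1.90-fold (limma unadjusted p = 0.0270, adjusted p = 0.998). With the letter as a block the unadjusted p was 0.0182 and the adjusted p 0.770, so the difference did not pass in either fit. The letter differences were 0.78, 1.08 and 0.92, and with 1 array left out the value stayed between 0.85 and 1.01. Against control Clcn7 stood at -0.53 ± 0.36 at 1 day and 0.40 ± 0.36 at 3 days. Control a weighs on both: without it they were -0.27 and 0.66, and without control c the 3-day value was 0.21.

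Clcn3, whose protein serves endosomes and synaptic vesicles, read 347.8, 193.6 and 277.6 in control, 321.4, 247.9 and 57.2 at 1 day, and 275.5, 322.3 and 203.9 at 3 days. The 1-day array c stood far below the other 8. The log2 fold change was -0.65 ± 0.54 at 1 day, -0.02 ± 0.54 at 3 days and 0.64 ± 0.54 between the times; without 1-day c the first and last were 0.09 and -0.10, and after quantile normalization the 3-day value was 0.05. Clcn4 read 69.6, 92.9 and 46.9 in control, 66.9, 56.1 and 58.3 at 1 day, and 99.1, 65.8 and 72.7 at 3 days, and each letter was higher at 3 days than at 1 day. Clcn1, the skeletal muscle channel (4.6 to 26.8), and the Clcn5 probe sets (1.8 to 87.4 and 2.7 to 45.4) lay under the filter.

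**Figure D2:**
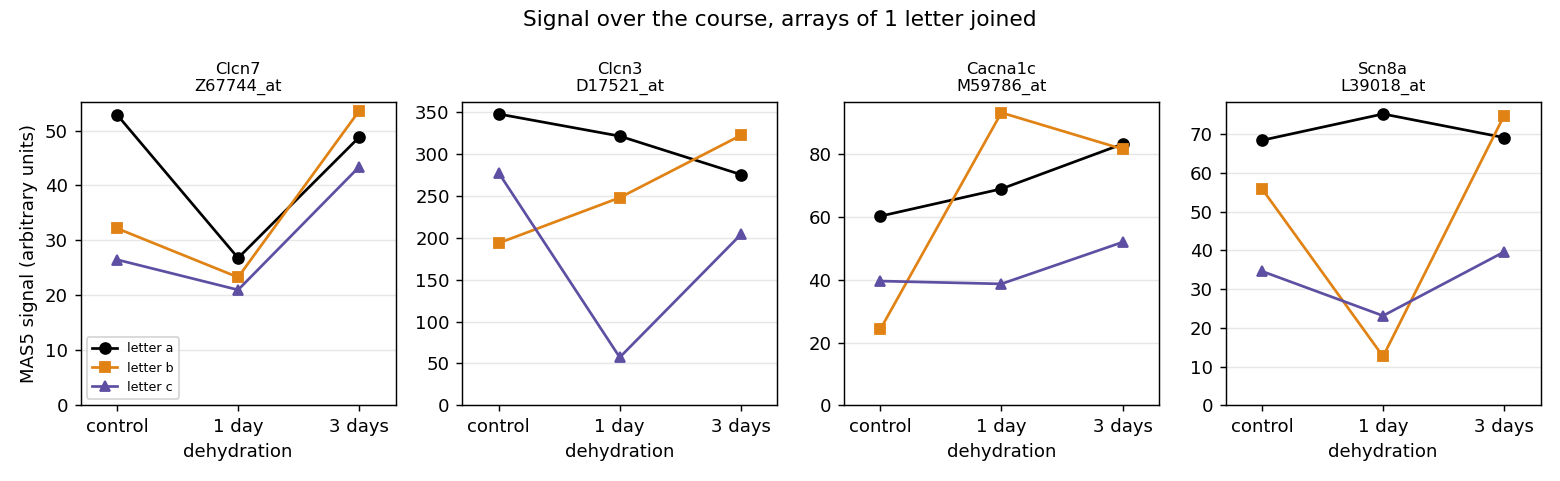
MAS5 signal of Clcn7, Clcn3, Cacna1c and Scn8a (L39018_at) in control, at 1 day and at 3 days, with the arrays of each letter joined. Clcn7 is lowest at 1 day in every letter (21.0 to 26.8), Clcn3 is far below its other arrays on 1-day c alone (57.2), and Scn8a is low on 1-day b (12.6).

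Counted together, the tested members lay close to the background of all tested probe sets at 1 day. At 3 days and between the times their medians lay above it, but not in every fit. At 1 day 15 of 30 were higher and 15 lower, with a median log2 fold change of 0.02, the same as the 0.02 over all 5247. Without control c that median was -0.15 and without 1-day c it was 0.23. At 3 days 19 were higher and 11 lower, with a median of 0.19 beside 0.02 over all. That median was -0.01 without control c, and -0.02 over the members that pass a filter at the 60th percentile. Within letters a, b and c it was 0.09, 0.06 and 0.23, beside 0.01, 0.04 and 0.04 over all. Between the times the counts were again 19 and 11, with a median of 0.15 beside 0.00, and of -0.18 without 1-day c. On these letter c arrays members tended to be dim. Control c was the lowest of its group for 16 of the 30 (53.3 percent, against 39.2 percent of all tested probe sets), 1-day c for 14 (46.7 against 37.8 percent) and 3-day c for 15 (50.0 against 35.2 percent). A fit without control c or without 1-day c kept letter c in the other groups, so its letters were unbalanced. The part of the letter c dimness in the medians was not tested.

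By family, calcium channel probe sets were higher at 1 day in 11 of 16 with a median of 0.20, and at 3 days in 9 of 16 with a median of 0.13. Sodium channel probe sets were higher in 4 of 11 at 1 day (median -0.20) and in 8 of 11 at 3 days (median 0.20). The 3 ClC probe sets were all lower at 1 day, with a median of -0.53, and all higher at 3 days than at 1 day, with a median of 0.64. Sodium channel probe sets were also mostly higher between the times, in 9 of 11 (median 0.27), and calcium channel ones in 7 of 16 (median -0.02). Of all tested probe sets 52.7 percent were higher at 1 day, 51.7 percent at 3 days and 50.1 percent between the times. Several probe sets of 1 gene count separately here, so these counts are not of independent genes. The families were not tested against each other.

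**Figure D3:**
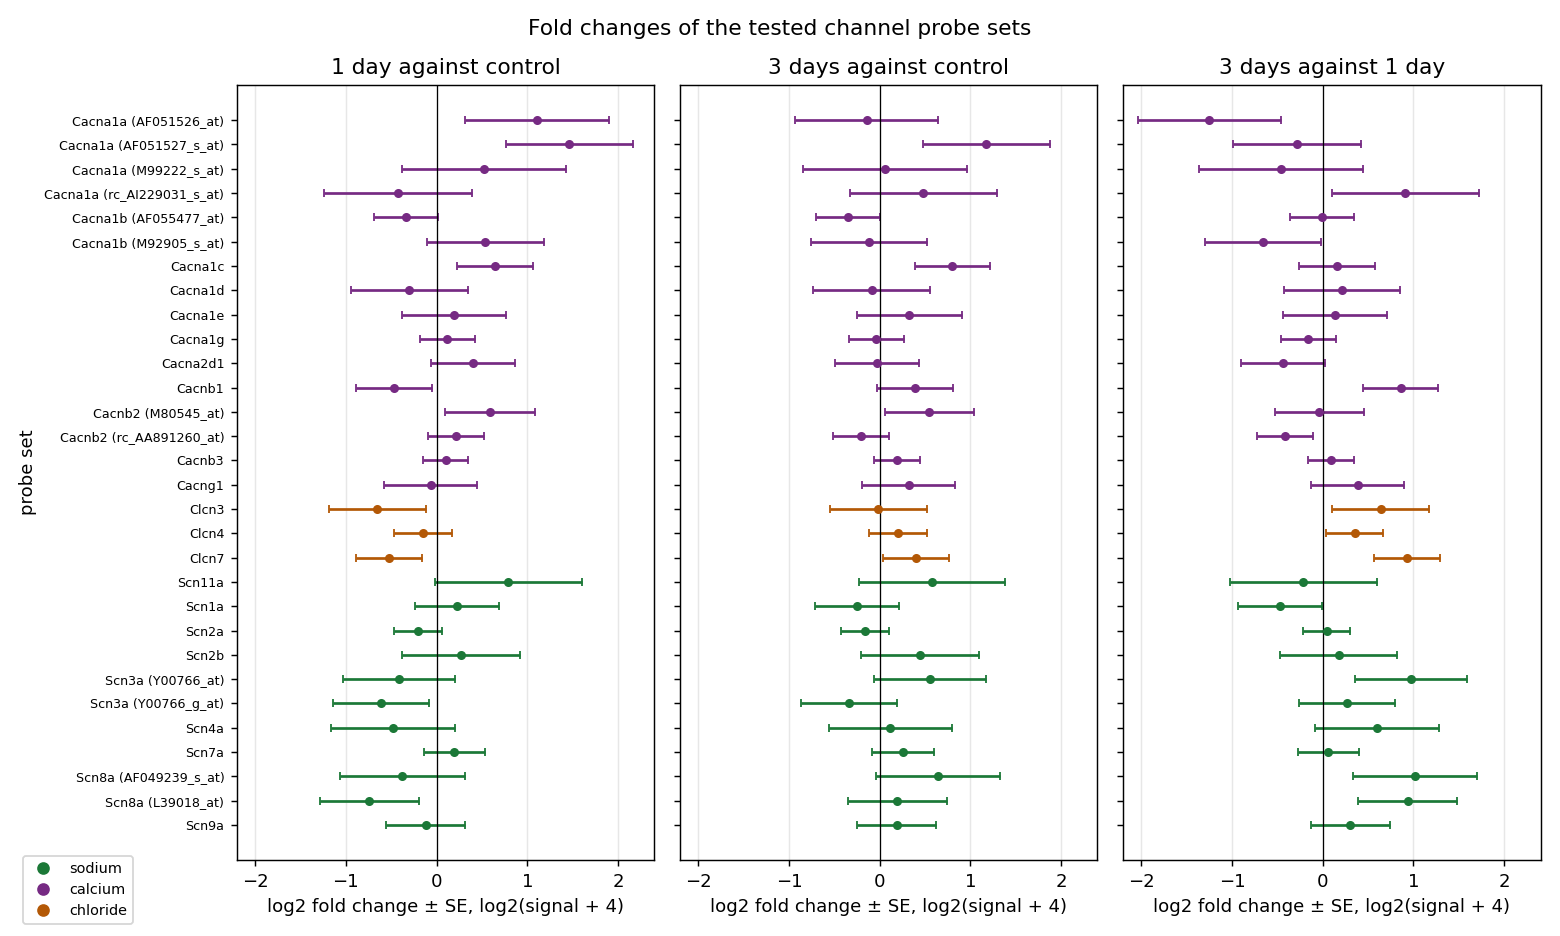
Log2 fold change with its SE for the 30 tested probe sets in the 3 comparisons, coloured by family. The values run from -0.74 to 1.46 at 1 day, from -0.35 to 1.18 at 3 days and from -1.25 to 1.02 between the times, and none passed the test.

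The 1 member with an unadjusted p under 0.05 was Clcn7, between the times. With the letter as a block 1 member had such a p at 1 day (Cacna1a), 1 at 3 days (Cacna1a) and 2 between the times (Clcn7 and Cacna1b), beside 2.59, 5.15 and 5.24 percent. These shares are near the background. The Cacna1a probe set at both times is AF051527_s_at, which passed the filter only through its dehydrated arrays.

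No tested member had dehydrated arrays wholly apart from control. At 1 day 0 were higher and 0 lower without overlap, beside 2.63 and 1.58 percent of all tested probe sets, and at 3 days 0 and 0, beside 4.73 and 3.01 percent. Between the times 1 was higher, Clcn7, and 0 were lower, beside 3.05 and 2.67 percent. Within letters, 5 members were higher at 1 day in all 3 and 2 were lower, beside 16.8 and 9.28 percent of all. At 3 days the counts were 5 and 3, beside 16.9 and 13.2 percent. Between the times they were 5 and 4, beside 12.5 and 12.9 percent. Those higher in all letters at 1 day were probe sets of Cacna1a, Cacna1b, Cacna1g, Cacna2d1 and Scn7a, and the 2 lower ones were of Clcn7 and Scn3a. Both dehydrated groups were set against the same control arrays, so the 1-day and 3-day values are not independent of each other.

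The letter separated several members more than dehydration did. A test of the letter in the blocked fit, added after the values had been seen, called 4 of the 30 tested members: Cacna2d1, Cacna1b (M92905_s_at), Cacna1a (M99222_s_at) and Scn2b, with adjusted p-values of 0.0323, 0.0270, 0.0323 and 0.0403 in limma. It called 3.56 percent of all tested probe sets. Cacna2d1 was lowest on letter a and highest on letter b in every group (means of 128.2 and 315.5). Cacna1b showed the reverse, at 173.9 on letter a and 48.7 on letter b. M99222_s_at of Cacna1a read 81.5, 49.5 and 6.9 in control, 130.4, 32.4 and 26.0 at 1 day, and 84.4, 46.2 and 8.8 at 3 days, with a highest and c lowest in every group, while Scn2b was lowest on letter c throughout. The count depends on the array set: it was 0 without control a, control b, control c, 1-day a or 3-day a, 2 without 1-day b, 3-day b or 3-day c, and 5 without 1-day c. After quantile normalization Cacna1b and Cacna2d1 were still called and Scn1a was called as well.

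Summed markers of some other cells differed by letter too. The summed signal of the 6 oligodendrocyte markers was 7698.5 to 8051.5 on letter a, 3389.0 to 5121.1 on letter b and 3677.3 to 6858.5 on letter c, so that letter a lay above the others. Its genes did not all follow the sum: Mobp and Mag were highest on letter a in every group, but Mog was lowest there in every group, Cnp was lowest there at 1 and 3 days, and Ugt8 was lower on letter a than on letter b throughout. The 8 markers of neighbouring hypothalamic nuclei summed to 1825.0 to 2474.4, 1339.5 to 1467.9 and 1988.3 to 3164.8, lowest on letter b, although Trh was highest on letter b at 3 days (377.2). The 6 microglia markers with a probe set summed to 231.9 to 275.7 on letter a, 224.0 to 280.8 on letter b and 308.9 to 437.5 on letter c. Much of the letter c sum was C1qb, with 217.8 on control c, 302.8 on 1-day c and 213.7 on 3-day c. These genes were split: C1qb and Csf1r were highest on letter c in every group, whereas Cx3cr1 was lowest there in every group. Cd74 was highest on control c and 1-day c. Aif1 was lowest on control c and 3-day c, and Itgam on control c and 1-day c. The 7 general neuron markers with a probe set ranged from 3548.3 to 4307.8 over all arrays, with the letters overlapping. The part of these cell types in the letter differences of the channel genes was not tested.

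**Figure D4:**
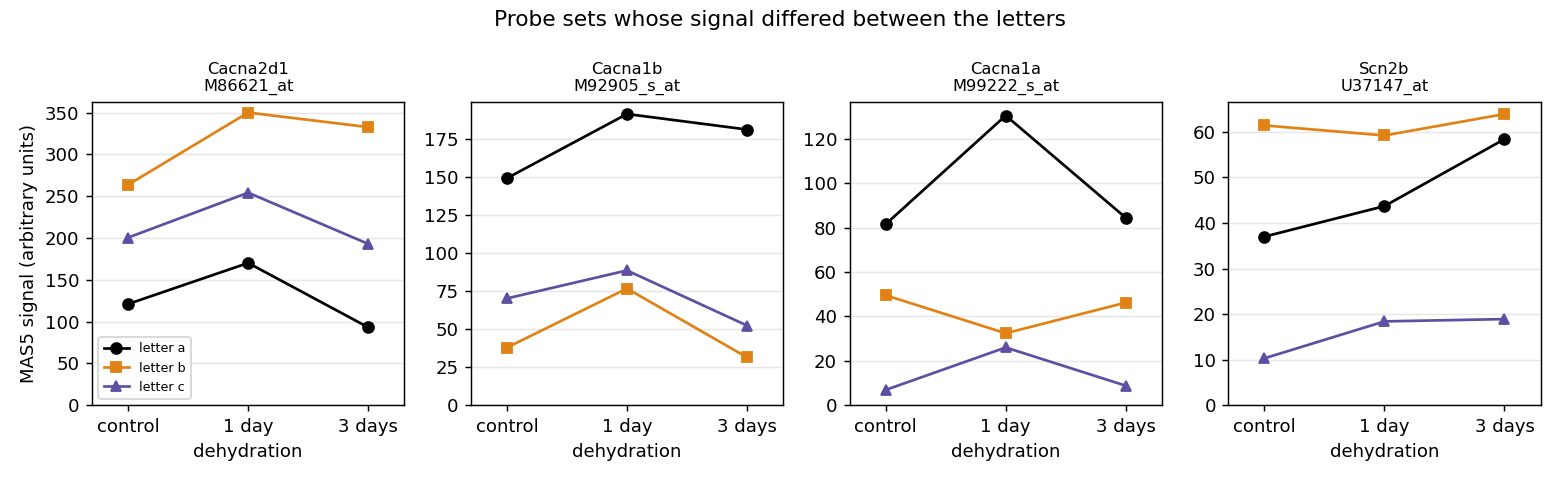
MAS5 signal of the 4 member probe sets called by the letter test, with the arrays of each letter joined over the groups. The letters form separate lines: Cacna2d1 is highest on letter b (263.8 to 350.1), while Cacna1b and Cacna1a are highest on letter a.

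Probe sets of the same gene often did not vary together. For 5 genes with several tested probe sets, 10 pairs could be formed, and the correlation of their log2 signals over the 9 arrays ran from -0.15 to 0.62 with a median of 0.37. The points share the letter and the array scaling, so these values are a description. In 4 of the 10 pairs the fold changes had opposite signs at 1 day, and in 5 at 3 days. The best pair was Scn8a at 0.62, and the worst was AF051526_at with rc_AI229031_s_at of Cacna1a at -0.15.

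The 19 members under the filter cover 12 genes, 6 of which (Cacna1h, Cacna1s, Cacnb4, Clcn1, Clcn5 and Scn10a) had no tested probe set. Their means over the 9 arrays were 4.13 to 23.1. The untested Scn4a probe set M26643_at, singled out after its values were seen, read 13.8, 27.0 and 9.1 in control and 2.7, 8.1 and 6.4 at 1 day, without overlap, but 7.0, 21.1 and 13.2 at 3 days.

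Genes that work beside these channels were read from a list of 80: acid-sensing, epithelial sodium and TRP channels, calcium pumps, exchangers and buffers, calcium-release channels, calmodulin targets, other chloride channels and exocytosis partners. Of these 50 had a probe set with 1 symbol and 38 were tested. None passed limma's test in any comparison (0 of 38), and 0 had an unadjusted p under 0.05 at 1 day, 0 at 3 days and 1 between the times. At 1 day 20 were higher and 18 lower (median 0.08), where 52.7 percent of all tested probe sets were higher. At 3 days the counts were 26 and 12 (median 0.07), beside 51.7 percent. Between the times they were 21 and 17 (median 0.04), beside 50.1 percent. The 1 was Camk2b, a subunit of the calcium- and calmodulin-dependent kinase, with mean signals (± SD, n = 3) of 870.4 ± 141.2 for control, 790.4 ± 42.8 after 1 day and 1336.5 ± 537.0 after 3 days and 0.69 ± 0.29 between the times. Trpv1, whose product contributes to osmosensing in these neurons, was dim at 10.8 ± 3.6, 32.1 ± 29.0 and 26.8 ± 11.1. It passed the filter of 23.1 only through its dehydrated arrays, so its fold changes are not given. Snap25, a part of the vesicle fusion machinery, stood at 0.40 ± 0.22 between the times.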

How the data were processed

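The deposited intensities are MAS5 signals on a linear scale, made by the authors with MAS5 per the submitters' processing notes; version, scaling target and detection calls are not given in the sources used here. From them log2(signal + 4) was computed, with no further scaling. The 59 control spots were dropped, and 5247 of the other 8740 probe sets had a mean of at least their 40th percentile (23.1). All 9 arrays entered a single model of the 3 groups in limma 3.58.1 (R 4.3.3), with 6 residual degrees of freedom, an intensity trend, two-sided moderated tests and Benjamini-Hochberg adjustment over all 5247 at 0.05.

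The letters pair the arrays. After subtraction of group means, same-letter arrays correlated at 0.17 to 0.47 in all 9 pairs and different-letter arrays at -0.33 to 0.12. A fit with this block has 4 residual degrees of freedom, and its median residual SD is 0.36 instead of 0.48.

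Members and lists were chosen with earlier results of these data known. Fold changes are given for the 4 tested members with the smallest p per direction and comparison, and for 14 genes of interest (the tested probe set of highest mean signal), of which 10 had one. Figures used Python 3.11.15 and matplotlib 3.10.9. The order of genes is that of RefSeq's GRCr8 annotation, and target sequences of the probe sets were not used here.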

Additional observations from a re-analysis of the deposited data

How the results depend on the processing

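With 3 arrays per group the SE of a member's fold change was 0.25 to 0.90 in the fit without the letter. It was 0.19 to 0.75 with the letter as a block. Detection calls were not analysed here. The 4 counts of called probe sets and of called members were 0 under all alternatives run: other pseudocounts, no filter or the 60th percentile, quantile normalization, median centring, no intensity trend, fits on the 2 groups only (not made for the test over 3 groups), each array left out, control c and 1-day c both left out, and the replicate block, which also gave 0 and changed no call. Of 872 alternative values for the 47 fold changes of members, 830 kept their direction and 42 changed sign, in 19 of the 47. The cause of the sign changes was not tested. Many of the 872 values could not differ from the main fit, so the count of 830 is no measure of stability. The other filters, no intensity trend, the fits on 2 groups and the replicate block leave a fold change as it is. So does leaving out an array of the group that is not compared. Leaving out 1 array also leaves the letters unbalanced between the groups, and those fits have no letter term. With 1 array left out, 44 of the 47 changed sign or moved by over 1.5 times. The other 3 were Clcn7 and Cacnb2 (rc_AA891260_at) between the times and Cacna1a (AF051527_s_at) at 1 day. That Cacna1a probe set passed the filter only through its dehydrated arrays. After quantile normalization at 3 days Cacna2d1 was 0.01 (0.0089) and Clcn3 0.050. Without control c and 1-day c, Clcn3 was 0.12 at 1 day, 0.016 at 3 days and -0.10 between the times; at 3 days Scn8a was -0.062, Scn2b -0.17 and Cacna2d1 0.024; between the times Scn2b was -0.26 and Cacna1c -0.17. With 1 array left out, the ranges at 1 day were -0.78 to 0.23 for Cacna1d, -0.35 to 0.75 for Scn2b, -1.19 to 0.73 for Cacna1a (rc_AI229031_s_at), -1.12 to 0.087 for Clcn3 and -1.01 to 0.062 for Scn3a (Y00766_g_at). At 3 days they were -0.029 to 0.91 for Cacnb2 (M80545_at), -0.57 to 0.31 for Cacna1d, -0.24 to 0.18 for Clcn3, -0.46 to 0.44 for Cacna2d1, -0.062 to 0.46 for Scn8a (L39018_at) and -0.17 to 0.95 for Scn2b. Between the times they were -0.11 to 0.24 for Scn2a, -0.25 to 1.67 for Cacna1a (rc_AI229031_s_at), -0.32 to 0.60 for Cacna1d, -0.26 to 0.68 for Scn2b, -0.17 to 0.42 for Cacna1c, -0.10 to 1.10 for Clcn3, -0.86 to 0.034 for Cacna2d1 and -0.00094 to 0.18 for Cacnb3. The number of members called by the letter test was 0 to 5 with 1 array left out and 0 without control c and 1-day c, against 4.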
